A study of Mus musculus with 6 samples.

Results

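The 9 genes described here encode the enzymes that make serine and the enzymes that carry its carbon through folate, in the cytosol and in mitochondria. They were chosen by symbol, as Phgdh, Psat1 and Psph for serine synthesis, Shmt1 and Mthfd1 for the cytosolic folate pathway, and Shmt2, Mthfd2, Mthfd1l and Aldh1l2 for the mitochondrial one. All 9 were found, each under 1 Ensembl ID, among the 16540 genes listed. Polyadenylated RNA was sequenced in 6 libraries from NIH-3T3, a long-established fibroblast line of mouse embryos, 2 for each of 3 guide RNAs. The guides PC sg2 and PC sg5 carry the abbreviation of pyruvate carboxylase, the mitochondrial enzyme that makes oxaloacetate from pyruvate and is encoded by Pcx in the mouse. The control is R26 sg1, R26 being a usual short name of Rosa26, a common neutral target in mouse cells. All cells, controls included, carried Cas9 from a lentivirus, had been selected in 2 ug/mL puromycin as uncloned pools, and spent 48 h in 0.2 mM glutamine with 10% dialyzed serum. The pools may therefore hold unedited cells, and the labels do not state whether a guide's 2 libraries are separate cultures. The p-values, standard errors and intervals below therefore rest on a spread between libraries that may be technical.

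Serine is made from the glycolytic intermediate 3-phosphoglycerate by a dehydrogenase, an aminotransferase that takes its nitrogen from glutamate, and a phosphatase. Serine hydroxymethyltransferases then split serine into glycine and a carbon unit held on tetrahydrofolate. In mitochondria that unit is oxidised to formate, which leaves for the cytosol, where it is used for purine, thymidylate and methionine synthesis. The stress-induced transcription factor ATF4 is known to activate most of these genes.

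Depth was lowest in PC sg5 replicate 2, with 22895172 recovered reads, and highest in control replicate 2, with 71710049, and mitochondrially encoded genes took 1.51% to 1.62% of them. Pcx averaged 345 ± 42.2 normalised read counts with PC sg2, 715 ± 2.04 with PC sg5 and 2964 ± 71.7 in the control (SD, n = 2 each), so the targeted transcript was low in every PC library. All 10 fibroblast markers were listed, with a summed level of 1023690 to 1060944 normalised counts in the PC libraries and 1920139 to 1990006 in the controls. All 10 fell by the test described next, which called 33.6% of all tested genes lower. Of the markers of other cell types, 1 of 8 for epithelium, 4 of 9 for leukocytes, 3 of 6 for endothelium, 1 of 6 for muscle and 2 of 6 for adipocytes were listed, and among those not listed were the defining genes Epcam, Ptprc, Cdh5, Myod1 and Adipoq. Their summed levels in the PC libraries and the controls were 8.6 to 19.1 and 57.4 to 58.7 for epithelium, 615 to 667 and 1022 to 1083 for leukocytes, 234 to 344 and 99.9 to 100.1 for endothelium, 11.7 to 26.3 and 72.3 to 90.6 for muscle, and 331 to 431 and 560 to 655 for adipocytes. Their part in the results on the enzymes was not tested. In RNA from whole pools, more transcript per cell and more cells with the transcript cannot be told apart.

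Transcripts of all 9 enzymes were higher in the PC pools, by 1.06-fold for Mthfd1l up to 2.31-fold for Mthfd2. Each of the 9 passed an adjusted p of 0.05 for both PC guides together against the control (limma, Benjamini-Hochberg over 16526 genes), in a comparison in which 34.3% of all tested genes were called higher, 33.6% lower and so 67.9% in either direction. The median log2 fold change of the 9 was 0.47, beside -0.01 for all tested genes. The scaling between libraries holds the median of all genes close to no change, so these changes are relative to most other genes. For 8 of the 9, Mthfd1l being the exception, every PC library lay above both controls, which was so for 36.6% of all tested genes. Psph, Shmt2, Mthfd2 and Aldh1l2 rose at least 1.5-fold, as did 15% of tested genes. The direction is thus shared with many other genes, while the sizes differ widely between the enzymes.

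**Figure D1:**
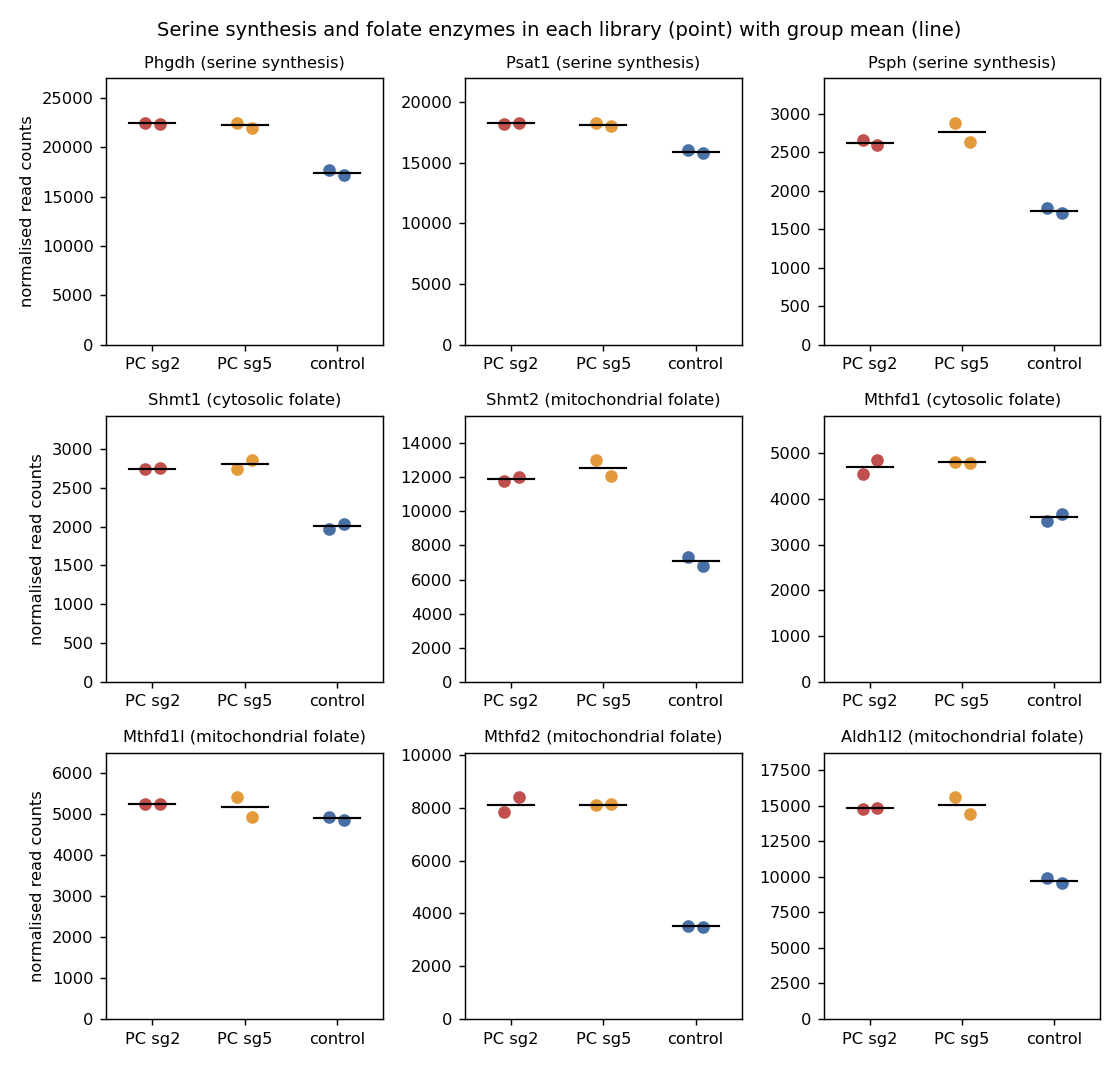
Normalised read counts (vertical axes from 0) of the 9 enzymes in each library, shown as points for PC sg2, PC sg5 and control, with the mean of each group as a line. In 8 panels the 4 PC points lie above both control points, while for Mthfd1l the lowest PC point (4931) lies below the higher control point (4939).

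Promoter sequences are shown for 2 pairs of counterpart enzymes because their members rose by different amounts. They come from RefSeq (GRCm38.p6), run 5′ to 3′ along the gene from 250 bases before to 50 bases after the annotated start, and carry the CCAAT box (CCAAT, or ATTGG on the other strand) in capitals.
Mthfd2 (chr6:83317555-83317854, minus strand): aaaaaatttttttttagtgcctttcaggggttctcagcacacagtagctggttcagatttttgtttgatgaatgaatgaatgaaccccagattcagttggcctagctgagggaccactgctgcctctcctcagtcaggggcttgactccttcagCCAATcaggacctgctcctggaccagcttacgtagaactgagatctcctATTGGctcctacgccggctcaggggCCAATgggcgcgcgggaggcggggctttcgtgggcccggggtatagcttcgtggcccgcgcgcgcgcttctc
Mthfd1 (chr12:76254982-76255281, plus strand): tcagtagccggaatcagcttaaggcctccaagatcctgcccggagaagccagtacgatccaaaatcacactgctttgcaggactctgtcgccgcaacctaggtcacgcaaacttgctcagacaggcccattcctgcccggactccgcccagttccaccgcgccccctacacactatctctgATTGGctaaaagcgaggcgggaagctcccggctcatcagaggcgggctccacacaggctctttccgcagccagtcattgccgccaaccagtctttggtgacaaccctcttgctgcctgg
Shmt2 (chr10:127522395-127522694, minus strand): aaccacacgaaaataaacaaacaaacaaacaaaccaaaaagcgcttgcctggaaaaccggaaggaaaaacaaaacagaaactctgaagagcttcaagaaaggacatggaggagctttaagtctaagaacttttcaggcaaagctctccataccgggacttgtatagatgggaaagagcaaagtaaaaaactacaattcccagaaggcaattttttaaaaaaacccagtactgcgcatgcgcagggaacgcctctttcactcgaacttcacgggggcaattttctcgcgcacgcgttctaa
Shmt1 (chr11:60811216-60811515, minus strand): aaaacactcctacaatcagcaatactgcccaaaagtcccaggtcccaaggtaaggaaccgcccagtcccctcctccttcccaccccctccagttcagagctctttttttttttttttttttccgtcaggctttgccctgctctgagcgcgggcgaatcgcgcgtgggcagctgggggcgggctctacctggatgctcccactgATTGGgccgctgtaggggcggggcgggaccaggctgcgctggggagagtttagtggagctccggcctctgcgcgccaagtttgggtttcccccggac
For Mthfd2 and Shmt1 the start used lies inside the longer GENCODE span of the gene. Of the 9 enzymes 8 had promoters in the table, 9 promoters in all since Psat1 has 2, and Aldh1l2 had no entry. CCAAT or ATTGG was present in 6 of these 9 promoters and in 37.4% of all 32851 promoters, with 3 matches for Mthfd2, 1 each for Mthfd1 and Shmt1 and none for Shmt2. The composite element of C/EBP and ATF factors (TGATGNAA, or TTNCATCA), the cyclic AMP response element (TGACGTCA) and the E-box (CACGTG) were searched on both strands as well. None was in any of the 9 promoters, while 3.97%, 1.79% and 7.15% of all promoters hold them, and this says only that these letters are not within this window. As only the CCAAT box was found, no matches of different motifs overlapped, and a match is a description, not a binding site.

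Among the serine synthesis enzymes, the dehydrogenase and the aminotransferase were abundant and rose modestly, and the phosphatase, which catalyses the last step, rose most. Phgdh encodes phosphoglycerate dehydrogenase, which commits 3-phosphoglycerate to serine (ENSMUSG00000053398, GRCm38 chromosome 3, 98313170 to 98339990, minus strand). Phgdh had 22486 and 22361 normalised counts with PC sg2, and 22479 and 21980 for PC sg5, against 17700 and 17197 in the controls. The 4 PC libraries lay close together and well clear of both controls. Its log2 fold change was 0.36 ± 0.02 (SE; adjusted p = 1.40e-11 by limma with Benjamini-Hochberg). Near-identical copies limit this value: 47.8% of the 50-base words in Phgdh transcripts also occur in transcripts of 23 other annotated genes, and how reads with several matches were counted is not given in the sources used here. Of those 23 genes 3 were listed, with summed means of 1070 normalised counts in the PC libraries and 846 in the controls.

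Psat1 encodes phosphoserine aminotransferase, the glutamate-dependent step (ENSMUSG00000024640, chromosome 19, 15904678 to 15947337, minus strand). It had 18195 and 18303 normalised counts with PC sg2, and 18248 and 18004 for PC sg5, against 16080 and 15777 in the controls. The groups did not overlap, and the rise of 0.19 ± 0.02 (SE) on the log2 scale was the second smallest of the 9 (adjusted p = 3.42e-07 by limma). With quantile normalisation the rise was 0.30. A larger log2 change than that of Psat1 was seen in 37.0% of tested genes.

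Psph encodes phosphoserine phosphatase, which releases free serine (ENSMUSG00000029446, chromosome 5, 129765558 to 129787449, minus strand). It had 2662 and 2594 normalised counts with PC sg2, and 2884 and 2640 for PC sg5, against 1777 and 1708 in the controls. The lowest PC library stood far above the higher control, and the log2 fold change was 0.63 ± 0.05 (SE, limma adjusted p = 7.58e-11). Psph shares 10.4% of its exon bases with Cct6a, a chaperonin subunit gene on the other strand that itself averaged 15602 ± 323 normalised counts in the PC libraries (SD, n = 4) and 11348 ± 14.4 in the controls (SD, n = 2). The part of those shared reads in the value of Psph was not tested.

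The cytosolic folate enzymes rose by similar amounts. Shmt1 encodes the cytosolic serine hydroxymethyltransferase (ENSMUSG00000020534, chromosome 11, 60788104 to 60811718, minus strand). It had 2742 and 2751 normalised counts with PC sg2, and 2744 and 2860 for PC sg5, against 1972 and 2033 in the controls. All PC libraries were above both controls, with a log2 fold change of 0.47 ± 0.04 (SE, limma adjusted p = 1.94e-09). Smcr8, on the other strand, shares 4.74% of the exon bases of Shmt1 and averaged 8859 ± 215 normalised counts in the PC libraries (SD, n = 4) and 4449 ± 157 in the controls (SD, n = 2). The part of that overlap in the value of Shmt1 was not tested either.

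Mthfd1 encodes the cytosolic enzyme with dehydrogenase, cyclohydrolase and formyltetrahydrofolate synthetase activities (ENSMUSG00000021048, chromosome 12, 76255298 to 76319803, plus strand). It had 4554 and 4854 normalised counts with PC sg2, and 4802 and 4794 for PC sg5, against 3513 and 3680 in the controls. The groups were again separate, and the log2 fold change was 0.40 ± 0.04 (SE, limma adjusted p = 3.25e-09). No 50-base word of Mthfd1, Mthfd1l or Mthfd2 occurs in a transcript of another gene.

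The mitochondrial folate enzymes held both the largest and the smallest change of the 9. Shmt2, the mitochondrial serine hydroxymethyltransferase (ENSMUSG00000025403, chromosome 10, 127517123 to 127522444, minus strand), had 11804 and 12037 normalised counts with PC sg2, and 13021 and 12096 for PC sg5, against 7347 and 6812 in the controls. The PC libraries averaged 173% of the control mean, with a log2 fold change of 0.79 ± 0.03 (SE, limma adjusted p = 6.72e-15). The next enzyme of the route, the methylenetetrahydrofolate dehydrogenase and cyclohydrolase Mthfd2 (ENSMUSG00000005667, chromosome 6, 83305691 to 83325908, minus strand), had 7850 and 8418 normalised counts with PC sg2, and 8128 and 8142 for PC sg5, against 3529 and 3499 in the controls. Mthfd2 thus more than doubled in every PC library, to 231% of the control mean. Its log2 fold change of 1.21 ± 0.03 (SE, limma adjusted p = 3.96e-18) had a 95% interval of 1.14 to 1.28, which lay above the intervals of the other 8 enzymes. Only 4.31% of tested genes had a higher log2 fold change than Mthfd2, and 10.6% had one higher than Shmt2.

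Mthfd1l encodes the mitochondrial formyltetrahydrofolate synthetase, which releases formate (ENSMUSG00000040675, chromosome 10, 3973118 to 4167081, plus strand). It had 5245 and 5252 normalised counts with PC sg2, and 5422 and 4931 for PC sg5, against 4939 and 4867 in the controls. PC sg5 replicate 2, the shallowest library, lay between the controls. The log2 fold change was 0.09 ± 0.04 (SE), with a limma adjusted p of 0.0441, close to the threshold. This call was lost without either control, without PC sg2 replicate 1 or 2 or PC sg5 replicate 1, with DESeq2, with quantile normalisation and without the intensity trend, where the adjusted p reached 0.209. Without PC sg5 replicate 1 the log2 fold change was 0.05.

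Aldh1l2 encodes the mitochondrial formyltetrahydrofolate dehydrogenase, which oxidises the carbon unit to carbon dioxide (ENSMUSG00000020256, chromosome 10, 83487450 to 83534140, minus strand). It had 14814 and 14851 normalised counts with PC sg2, and 15622 and 14454 for PC sg5, against 9931 and 9546 in the controls. All PC libraries were higher, with a log2 fold change of 0.62 ± 0.03 (SE, limma adjusted p = 7.09e-14). D10Wsu102e, on the other strand, shares 14.1% of the exon bases of Aldh1l2 and averaged 6121 ± 181 normalised counts in the PC libraries (SD, n = 4) and 3692 ± 32.9 in the controls (SD, n = 2). As the library kit does not mark strand, strand cannot assign reads of the shared stretch to either gene. How such reads were counted is not given in the sources used here, and their part in the change was not tested.

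Normalised counts compare a gene between libraries, so levels of different enzymes were compared per kb of exon. The length was that of all annotated exons of a gene merged, which can exceed the length of the transcripts present. On that scale Phgdh was the most abundant of the 9, with 8981 ± 95.7 normalised counts per kb in the PC libraries (SD, n = 4) and 7019 ± 143 in the controls (SD, n = 2), and Psph the least, with 623 ± 29.9 in the PC libraries and 403 ± 11.3 in the controls. By this measure the final step of serine synthesis had the scarcest serine transcript. Phgdh (2486 exon bases) exceeded Psph (4329 exon bases) 14.4-fold in the PC libraries and 17.4-fold in the controls. These ratios rest on the lengths used and on the Phgdh count, which the near-identical copies described above limit. By this measure Mthfd1l and Mthfd2 changed places. Their order in the controls, where they lay close together, depends on the lengths used, 4435 bases for Mthfd1l and 3487 for Mthfd2. Mthfd2 had 2333 ± 66.5 normalised counts per kb in the PC libraries and 1008 ± 6.11 in the controls, while Mthfd1l had 1175 ± 46.1 in the PC libraries and 1106 ± 11.5 in the controls. In the PC libraries Mthfd2 and Aldh1l2 lay between 1926 and 2414 normalised counts per kb and Mthfd1l between 1112 and 1223, while in the controls all 3 lay between 1003 and 1324.

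**Figure D2:**
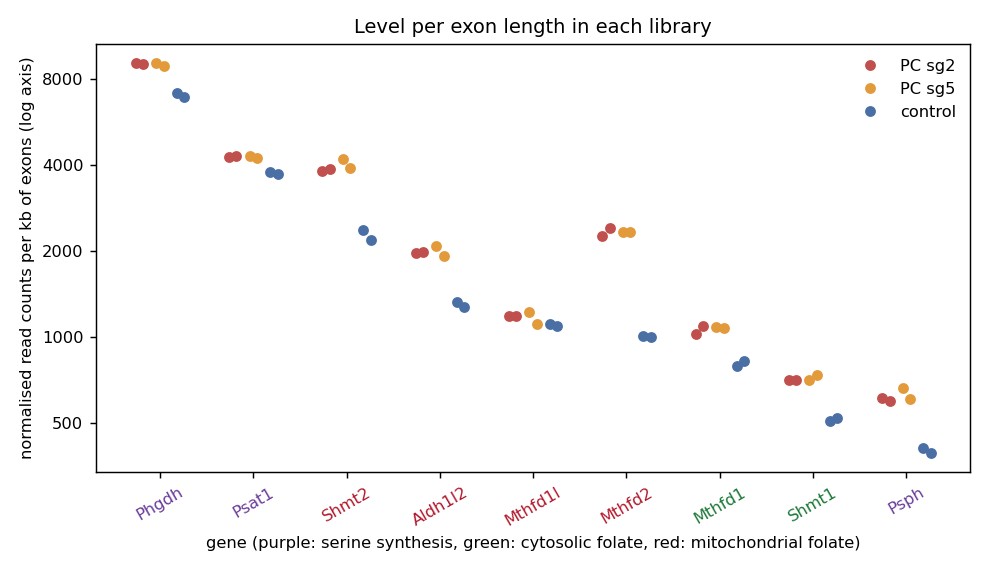
Normalised read counts per kb of merged annotated exons (log axis) of the 9 enzymes in each library, with points for PC sg2, PC sg5 and control. Genes run from the highest to the lowest control mean, an order that depends on the annotated lengths. Mthfd2 lies well above Mthfd1l in the PC libraries (2333 for Mthfd2 and 1175 for Mthfd1l on average) and just below it in the controls (1008 for Mthfd2 and 1106 for Mthfd1l).

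The transcript balance between the compartments was higher on the mitochondrial side in the PC libraries for 2 pairs of counterpart enzymes. Aldh1l1 was not listed, so Aldh1l2 could not be set against it. Per kb, the ratio of Shmt2 to Shmt1 was 5.38 and 5.46 in the PC sg2 libraries, 5.93 and 5.28 in the PC sg5 libraries and 4.65 and 4.18 in the controls. The ratio of Mthfd2 to Mthfd1 was 2.20 and 2.21 in the PC sg2 libraries, 2.16 and 2.16 in the PC sg5 libraries and 1.28 and 1.21 in the controls. Neither ratio overlapped between PC and control libraries, where 36.6% of single tested genes had every PC library above both controls. The share of other gene pairs whose ratio separates in this way was not counted. The ratio of Mthfd1l to Mthfd1 went the other way, with 1.03 to 1.15 in the PC libraries and 1.32 to 1.41 in the controls. The mitochondrial enzymes thus changed by unequal amounts against their cytosolic counterparts, and these ratios are given without a test.

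The 2 PC guides gave closely similar values, although they left different amounts of the targeted transcript. Pcx was 2.07-fold higher with PC sg5 than with PC sg2, with an adjusted p of 6.60e-07 by limma. For the 9 enzymes the log2 difference of PC sg5 against PC sg2 ran from -0.02 for Mthfd1l to 0.07 for Shmt2. No enzyme passed the threshold in that comparison (limma adjusted p from 0.514 to 0.997, and 0 of 9 at an unadjusted p under 0.05), where 0.242% of all tested genes did, and edgeR and DESeq2 also called 0 of 9. The 95% intervals of these differences ran from 0.926-fold to 1.13-fold over all 9. They bound the difference only as far as the spread between libraries allows, and do not show that the guides act alike. Mthfd2 averaged 8135 ± 9.55 normalised counts with PC sg5 and 8134 ± 401 with PC sg2 (SD, n = 2 each). Against the control, 8 of 9 enzymes rose with PC sg2 (32.9% of all tested genes did) and 8 of 9 with PC sg5 (32.6%), Mthfd1l having an adjusted p of 0.0523 with PC sg2 and 0.127 with PC sg5 by limma. For PC sg5 the log2 fold change of Mthfd1l, 0.08, was 0.15 without replicate 2 of that guide, when it passed (limma adjusted p = 0.00758), and 0.0082 without replicate 1. These comparisons share the control libraries.

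**Figure D3:**
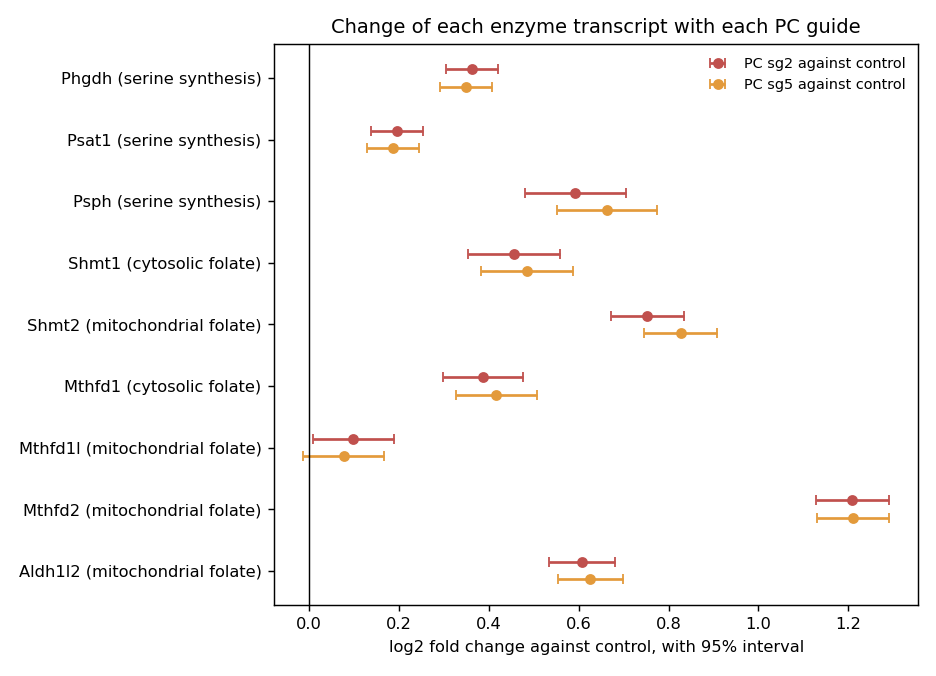
Log2 fold change of each enzyme (points) with its 95% interval (bars) for PC sg2 against control and PC sg5 against control. The intervals of the guides overlap for every enzyme, and Mthfd2 stands highest at 1.21 with either guide while the interval of Mthfd1l includes 0 with PC sg5.

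The 9 enzymes held 0.182% to 0.189% of all recovered reads in the PC libraries and 0.125% to 0.129% in the controls. Set among all tested genes, their log2 fold changes ran from near the middle of the distribution to its upper tail. More genes were above Mthfd1l (43.6%), Psat1 (37.0%) and Phgdh (27.1%) than above Psph (15.4%) or Aldh1l2 (15.8%). The genes closest to Mthfd2 in pattern, by the root mean square difference of centred log2 values over the 6 libraries, were Timm9, Sqstm1, Xpot, Pithd1 and Grpel2, at 0.0224 to 0.0294, and 252 genes lay within 0.1. For Phgdh they were Atp1b3, Brk1, Rpl5, Scrib and Pgp (0.0124 to 0.0150, with 2316 genes within 0.1), and for Mthfd1 they were Ubn1, Rab3gap2, Phf23, Lrrfip1 and Atp6v0c-ps2 (0.0110 to 0.0191, with 1983 within 0.1). With 6 libraries in 3 groups, genes of like fold change score as alike.

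**Figure D4:**
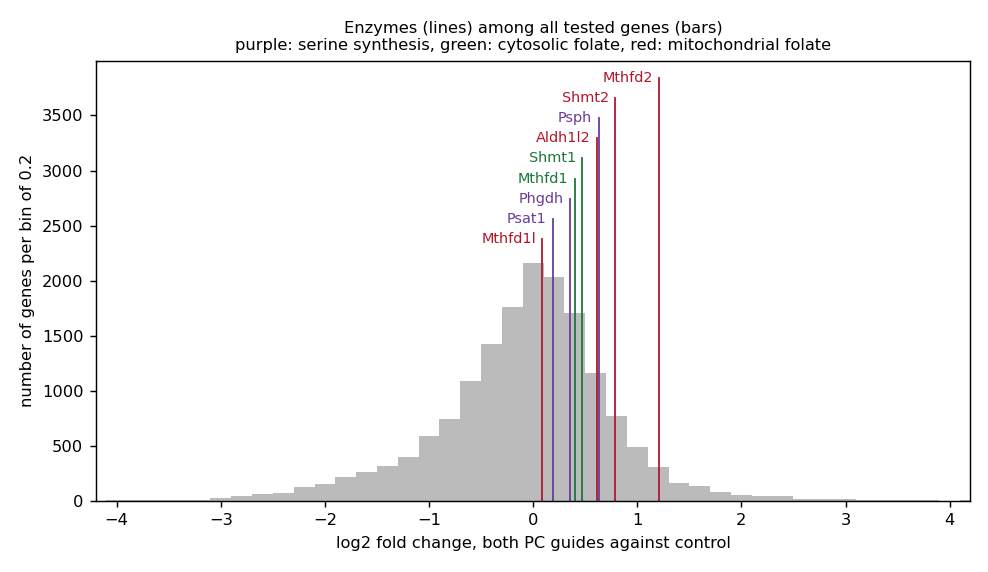
Number of tested genes per bin of 0.2 in log2 fold change of both PC guides against control (grey bars), with a labelled line at the value of each enzyme, whose height carries no value. The lines run from 0.09 for Mthfd1l to 1.21 for Mthfd2, all to the right of the median of all tested genes at -0.01.

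Genes of the wider folate pathway changed in both directions. Of 20 other folate enzymes and transporters 19 were tested, 10 rose and 3 fell, and 6 missed the threshold, where 34.3% of all tested genes were called higher and 33.6% lower. Their median log2 fold change was 0.19, beside -0.01 for all tested genes. The largest rises were in methionine synthase and its partner, which use the folate carbon unit to remake methionine. Mtrr, the reductase that reactivates methionine synthase, averaged 3729 ± 88.8 normalised counts in the PC libraries (SD, n = 4) and 1437 ± 24.6 in the controls (SD, n = 2), a log2 fold change of 1.38 ± 0.04 (SE). Mtr, methionine synthase itself, averaged 2329 ± 179 in the PC libraries and 943 ± 1.54 in the controls, a log2 fold change of 1.30 ± 0.05 (SE). Slc19a1, the reduced folate carrier of the plasma membrane, rose by 0.90 ± 0.05 (SE), and these 3 genes had limma adjusted p-values of 1.48e-13 or smaller. Folr1, a folate receptor, had 0 to 9.10 normalised counts in the PC libraries and 38.8 and 26.8 in the controls, and was called lower (limma adjusted p = 0.00196). The PC values lie near the 3-read floor of 2.34 to 6.41 in those libraries, and the control values lie well above theirs. Mthfd2l, the paralog of Mthfd2 in mitochondria, had a log2 fold change of -0.10 ± 0.06 (SE) and did not pass (limma adjusted p = 0.143).

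Of 27 genes of serine and glycine transport, cleavage and use, 22 were tested, 11 rose and 8 fell, beside the same shares of all tested genes, 34.3% higher and 33.6% lower. Their median log2 fold change was 0.22. Slc38a1, a transporter of small neutral amino acids, averaged 10150 ± 712 normalised counts in the PC libraries (SD, n = 4) and 3988 ± 112 in the controls (SD, n = 2). Sardh, the mitochondrial sarcosine dehydrogenase that feeds a carbon unit to folate, went the other way, with 1905 ± 58.3 in the PC libraries and 4553 ± 300.2 in the controls. Gldc, the decarboxylase of the glycine cleavage system, was scarce, with 19.7 ± 11.2 normalised counts in the PC libraries and 73.9 ± 1.99 in the controls. Sds, a serine dehydratase, had 74.5 ± 16.0 in the PC libraries and 25.3 ± 8.34 in the controls, and 29.6% of its exon bases lie in another gene. All 4 passed the threshold (limma adjusted p of 7.47e-05 or smaller). Among 9 glycolytic genes around 3-phosphoglycerate, 5 rose and 2 fell, with a median log2 fold change of 0.16. The mutase genes Pgam2 and Pgam1, whose products take 3-phosphoglycerate on down glycolysis, had log2 fold changes of 1.09 ± 0.10 and 0.47 ± 0.03 (SE). Bpgm, the related bisphosphoglycerate mutase, had one of 0.68 ± 0.06 (SE), and Gapdh, which acts upstream of 3-phosphoglycerate, one of -0.54 ± 0.02 (SE). These 4 changes passed the threshold (limma adjusted p of 1.90e-09 or smaller).

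Of 10 genes known to act on these enzymes, 6 rose and 4 fell, where 34.3% of all tested genes were called higher and 33.6% lower. Atf4 itself averaged 23871 ± 280 normalised counts in the PC libraries (SD, n = 4) and 12942 ± 44.0 in the controls (SD, n = 2), a log2 fold change of 0.88 ± 0.02 (SE, limma adjusted p = 2.14e-18). Myc, which is known to activate Shmt2 and Mthfd2 among many genes, had 20634 ± 206 in the PC libraries and 2788 ± 185 in the controls. Nfe2l2, which encodes the oxidative stress factor NRF2, had 6654 ± 211 in the PC libraries and 4928 ± 151 in the controls. The others that rose were Kdm4c, Mdm2 and Trp53, with log2 fold changes of 0.73 ± 0.05, 0.35 ± 0.02 and 0.11 ± 0.03 (SE). Of the 4 that fell, Mycn, a scarce paralog of Myc here, had 31.0 ± 14.4 normalised counts in the PC libraries and 115 ± 11.1 in the controls, with a log2 fold change of -1.96 ± 0.34 (SE, limma adjusted p = 2.88e-05). Eif2ak4, which encodes the amino acid sensing kinase GCN2 upstream of ATF4, had 2733 ± 92.9 in the PC libraries and 4703 ± 12.6 in the controls, with a log2 fold change of -0.78 ± 0.04 (SE, limma adjusted p = 6.65e-14). The other two were Eif2ak3, which encodes the kinase PERK, at -0.45 ± 0.06, and Ehmt2, which encodes the histone methyltransferase G9a, at -0.41 ± 0.03 on the log2 scale (SE). Of 28 other genes listed for the ATF4 response, among them Slc6a9 of the serine and glycine genes above, 25 rose and 3 fell. The shares of all tested genes were again 34.3% higher and 33.6% lower. The median log2 fold change of the 28 was 0.76, beside 0.47 for the 9 enzymes and -0.01 for all tested genes. Whether any of these factors acted on the enzymes was not tested.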

How the data were processed

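Gene expression was measured in 6 NIH-3T3 libraries, made with the NEBNext Ultra kit from polyadenylated RNA after Trizol extraction, per the labels' protocols. STAR, featureCounts, DESeq2, Trimmomatic, bcl2fastq 2.17 and the build GRCm38 appear, without roles, in the submitters' processing notes. No source used here gives their settings, the annotation, strand use or the treatment of reads with several matches. The table the authors deposited holds normalised read counts, a signal of counts divided by 1 size factor per library. Such values correct for depth and not for gene length, and such scaling would hide a change shared by most genes. In every library 100% of values above 0 were whole multiples (tolerance 0.01) of 1 step, so whole reads were recovered. Recovered reads of the 9 enzymes ran from 1235 for Psph to 28859 for Phgdh in a library. Every listed gene had at least 61 reads in all.

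IDs were matched to GENCODE M21, and 16491 of 16540 had a symbol. limma 3.58.1 in R 4.3.3 was fitted to log2(normalised count + 1) with 3 groups over all libraries, a trend of variance with intensity and two-sided tests, with p-values adjusted by Benjamini-Hochberg, on 16526 genes with at least 10 normalised counts in 2 libraries. The 3 residual degrees of freedom were moderated by a median of 17.3 prior ones. On this log2(value + 1) scale, changes of low genes are understated. The fits were tested on simulated counts in which far fewer genes changed than were called here. This does not test them where most genes change. The members and lists were chosen with earlier results of these data known. The rule named all 9 enzymes, Pcx, up to 4 genes of each list with the largest change past the threshold, Atf4, Myc and Nfe2l2, and the 5 genes closest in pattern to Mthfd2, Phgdh and Mthfd1. Marker genes and ATF4 response genes are given as counts. Mthfd2l, Eif2ak3, Ehmt2, Kdm4c, Mdm2 and Trp53 were added after their values were seen. edgeR 4.0.16 and DESeq2 1.42.0 on recovered reads, other scalings, pseudocounts, filters and leaving out each library were alternatives. On the recovered reads edgeR called 5695 genes higher and 5729 lower for both PC guides against control, where limma called 5674 higher and 5548 lower.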

Additional observations from a re-analysis of the deposited data

How the results depend on the processing

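Of the 9 enzymes, 8 kept their rise and their call for both PC guides against control under all 17 alternatives (edgeR, DESeq2, quantiles, leaving out the top 50 genes, library totals, pseudocounts of 8 and 0.5, no filter, a mean of at least 50, no intensity trend, the replicate block and each library left out). Scaling to library totals was chosen after seeing the data. Mthfd2 ranged from 1.17 to 1.28, Psat1 from 0.18 to 0.30 (the highest with quantiles) and Mthfd1l from 0.05 to 0.16 on the log2 scale, and Mthfd1l passed in 10 of the 18 settings including the one reported. The number of all genes called between PC sg5 and PC sg2, 40 as reported, was 63 with library totals, 68 with edgeR, 91 with DESeq2, 65 with a pseudocount of 8, 65 with a mean of at least 50, 0 without the intensity trend and 160 with the replicate block, and 10 to 218 with each library left out in turn. Without control replicate 1 or 2 it was 26 and 26, without PC sg2 replicate 1 or 2 14 and 10, and without PC sg5 replicate 1 218, and no enzyme was called in any of these. The cause was not tested. Replicate numbers are shared by the groups, but deviations of same-numbered libraries correlated at only -0.02 to 0.03 over all tested genes. With 2 libraries per group this cannot settle whether the numbers pair the libraries. The block left all 9 enzymes called for both guides together and 8 for PC sg5 alone. Mthfd1l with PC sg2 alone passed under the block (adjusted p = 0.0289 by limma) and under 6 other alternatives (library totals, edgeR, a pseudocount of 8, a mean of at least 50 and leaving out either PC sg5 library), and with PC sg5 alone under 2 (library totals and without PC sg5 replicate 2). With only 2 controls the spread of the control is poorly known.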

Other observations

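Genes around the folate pathway and the family of a mitochondrial serine carrier, chosen here after their values were seen, did not share 1 direction. Gart, a purine synthesis enzyme that takes formyl units, averaged 7670 ± 88.0 normalised counts in the PC libraries (SD, n = 4) and 5315 ± 9.54 in the controls (SD, n = 2). Tyms, which makes thymidylate, averaged 1270 ± 21.5 in the PC libraries and 1596 ± 41.5 in the controls. Slc25a32, the mitochondrial folate carrier, and Sfxn1, a mitochondrial serine carrier, had log2 fold changes of 0.39 ± 0.05 and 0.63 ± 0.04 (SE). Sfxn2 and Sfxn3, of the same family as Sfxn1, went the other way, with log2 fold changes of -0.55 ± 0.09 and -0.52 ± 0.03 (SE). All these changes passed the threshold, with limma Benjamini-Hochberg adjusted p-values of 1.76e-05 or smaller.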
